A study of Oryza sativa with 20 samples.

Results

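Heat shock proteins and the heat shock factors that control their genes were followed in rice (Oryza sativa) pistils before and after pollination. The members were chosen by name: every gene whose symbol or synonym is HSP followed by a number, or HSF followed by a number or by A, B or C and a number, read by a probe set that the annotation table gives to 1 gene. The rule matched 64 probe sets of 43 genes, of 17905 genes that have such a probe set on the array, and each gene was represented by its probe set with the highest mean. A probe set is a group of short probes meant to read 1 transcript. Of the 43 genes 41 were bright enough to be tested: 12 class A, 5 class B and 3 class C heat shock factors, 3 HSP90 genes, 1 HSP100 gene and 17 small heat shock protein genes. The other 2, the small heat shock protein genes HSP16.6 and HSP22.3, stayed low on all 20 arrays, at 0.258 or less and 0.251 or less. Another 6 genes of the name table that fit the rule (HSFA6A, HSFB4C, HSFC2B, HSP16.9C, HSP18.9 and HSP19.0) are not analysed here.

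RNA was measured on 20 Affymetrix rice arrays in 7 groups: the stigma 5 min after pollination (n = 2), the unpollinated stigma (n = 3), the ovary 5 min after pollination (n = 3), the unpollinated ovary (n = 3), and pistils, that is stigma and ovary together, at 15 to 25 min, at 40 to 50 min and at 5 to 7 h after pollination (n = 3 each). All plants stood in paddy fields at Mishima, Japan, with no heat treatment in the labels, and tissue was taken between August and October. The labels name no cultivar or mutant. Pollen grains on the stigma may have been collected with the pollinated stigmas and pistils, and whether ovaries at 5 min carried any was not tested.

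Heat shock proteins are chaperones. Small heat shock proteins hold unfolding proteins and keep them from clumping, HSP100 proteins pull clumps apart, and HSP90 proteins complete the folding of signalling proteins. Heat shock factors bind the promoters of these genes. Class A factors carry activation domains. Class B factors lack them and act as repressors or coactivators in Arabidopsis and tomato, and class C factors also lack them. Many of these genes are induced by heat and by other stresses, and some are made during flower and seed development without heat.

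Intensities are relative, with the upper quartile of every array set to 1, and values under 0.128, called the floor here, were raised to it before log2 was taken. Array medians ran from 0.195 to 0.377, and the lowest correlation between 2 arrays of the same group was 0.937. The number of arrays limits the precision. Replicates are labelled biological without a word on separate plants or collection days, so a p-value here reflects the scatter among these arrays, which may be partly technical. In such bulk tissue, fewer cells of a type and less RNA per cell cannot be told apart. The tissue labels were set against their markers: the ovule genes MADS13 and MADS21 were lower in the unpollinated stigma than in the unpollinated ovary by log2 changes of -3.51 and -4.68, and DL, a carpel gene, was higher by 1.74 (adjusted p = 1.55e-07, 1.93e-08 and 3.91e-05). Of the 5 carpel and ovule genes 2 were higher there and 2 lower. The 2 arrays of the stigma at 5 min differed in ovule genes. MADS13 read 0.972 and 3.66, MADS21 0.256 and 0.964 and the nucellus gene MADS29 0.134 and 1.27, higher on replicate 2. In the unpollinated stigma they read at most 2.11, 0.304 and 0.157. Whether that replicate held ovary tissue was not tested. The pollen list matched 2 genes, the beta-expansins EXPB9 and EXPB10, whose summed intensity was 63.5 to 67.9 in the stigma at 5 min, against 2.80 to 4.93 in the unpollinated stigma, and 8.40 to 19.8 in the ovary at 5 min, against 0.264 to 0.671 in the unpollinated ovary. It was 2.60 to 11.1, 1.58 to 19.8 and 10.2 to 13.4 in pistils at the 3 later times. Of these genes 2 were called higher in the stigma at 5 min and 1 in the ovary, beside the 5-min changes given below, and neither was called in any comparison of pistils. Both were also higher in the unpollinated stigma than in the unpollinated ovary. Of 3 stamen and lodicule genes (MADS2, MADS4 and MADS16) 2 were lower in the stigma at 5 min, with summed intensities of 67.5 to 93.8, against 117 to 129 in the unpollinated stigma. The same 2 were higher in the unpollinated stigma than in the unpollinated ovary (26.65 to 58.3), and 2 of 3 tested tapetum genes were higher there too. The part of these cell types in the results was not tested.

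The heat shock genes varied more between replicates than most genes did. Their median standard deviation within groups was 0.55 on the log2 scale, against 0.28 over the 35470 tested probe sets, and 23 of the 41 lay above the 90th percentile of all probe sets. The median was 0.85 for small heat shock protein genes, 0.71 for class B factors, 0.25 for class A factors and 0.20 for HSP90 genes. For the small heat shock protein genes the unpollinated stigma was the widest of the 7 groups. There the brightest array exceeded the dimmest by a median of 8.10-fold over the 17 small heat shock protein genes, against 1.43-fold over all tested probe sets, whereas in pistils at 5 to 7 h the same genes differed by 1.34-fold and all probe sets by 1.25-fold.

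**Figure D1:**
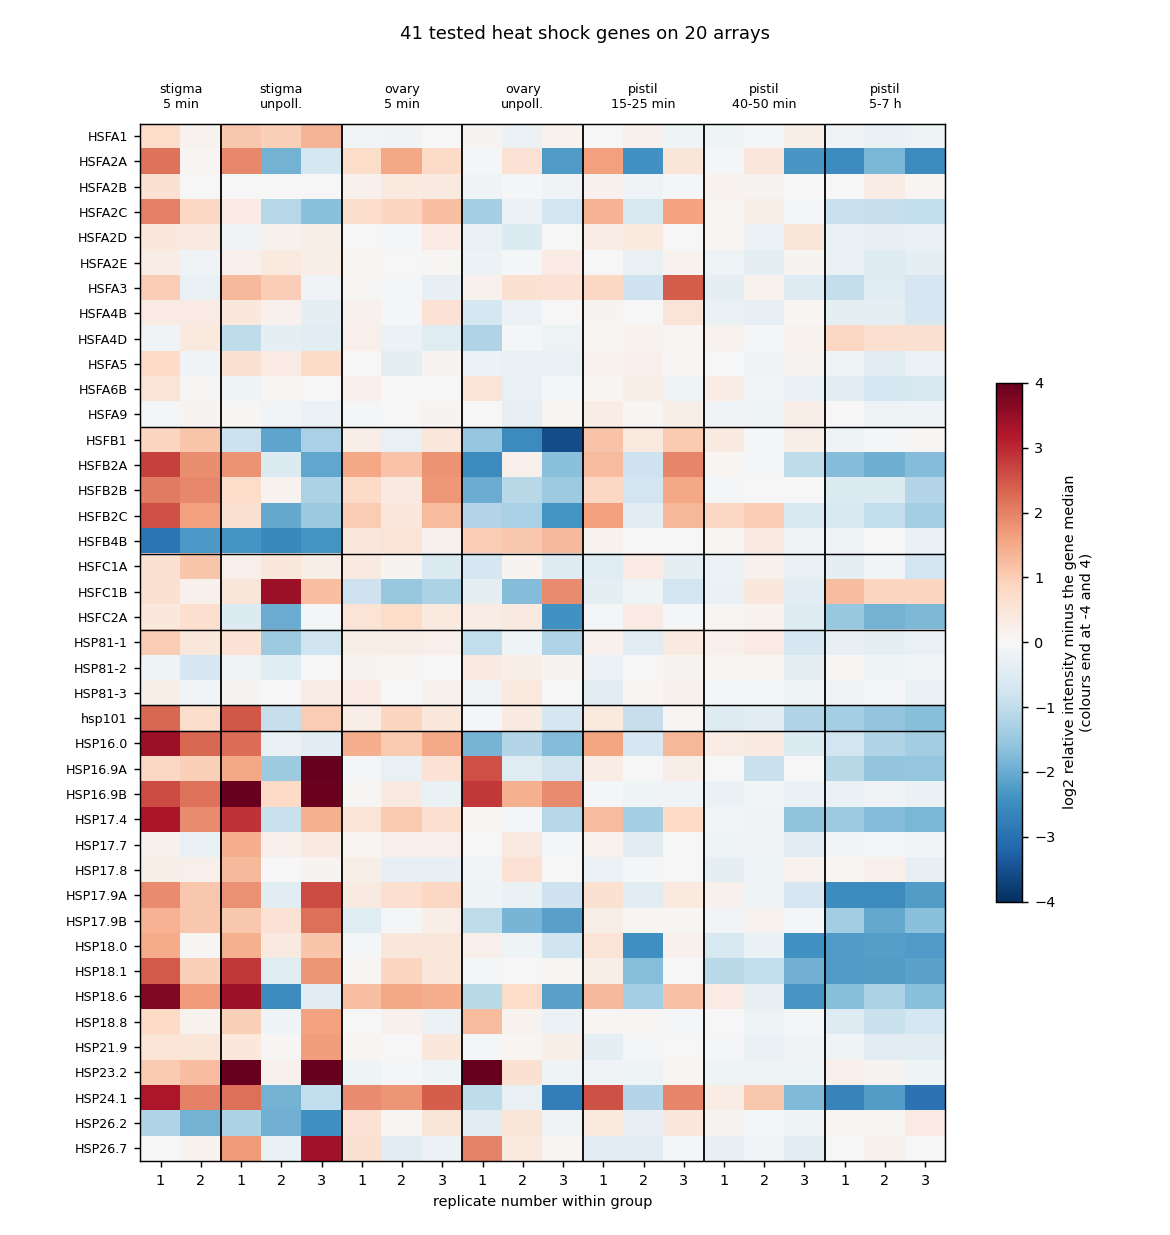
Log2 relative intensity of 41 heat shock genes (rows, grouped by class) on 20 arrays (columns, by group and replicate), each gene minus its own median over arrays, with colours ending at -4 and 4. Of the 17 small heat shock protein genes 16, 7 and 13 are above their own median (red) on unpollinated stigma replicates 1, 2 and 3, and at least 13 are at or below it on each array of 5 to 7 h.

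Single arrays stood apart for these genes. Unpollinated stigma replicate 2 was the lowest array of its group for 26 of 41 members and for 15 of the 17 small heat shock protein genes (40% of all tested probe sets), and replicate 1 was the highest for 22 members, among them all 5 class B factors (33.2% of all tested probe sets). In the pollinated stigma replicate 1 was the higher of the 2 arrays for 32 members, against 46.2% of all probe sets. Pistil replicate 2 at 15 to 25 min was the lowest for 27 members (25.7% of all), and pistil replicate 3 at 40 to 50 min for 26 (35.1% of all). Results that rest on such arrays are given below with and without them.

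At 5 min 7 members were higher and 1 was lower in the pollinated than in the unpollinated stigma, and 6 were higher and 1 lower in the ovary. A call is an adjusted p under 0.05. For the stigma 8.61% of all tested probe sets passed as higher and 13.4% as lower (22% in either direction), and for the ovary 3.88% and 2.02% (5.9%). The median log2 change of the members was 0.25 (stigma) and 0.39 (ovary), beside -0.02 and -0.06 for all probe sets. With arrays scaled on probe sets that are bright on every array the median of all probe sets in the stigma was 0.21, the split of all calls was 4153 higher and 1831 lower in place of 3054 and 4756, and 8 members were higher and none lower. HSFB1, HSFB2A, HSFB2B, HSFB2C and HSP16.0 were higher in both tissues, which is 71.4% of the members higher in the stigma and 83.3% of those higher in the ovary. Among all probe sets 916 were higher in both, 30% of those higher in the stigma and 66.6% of those higher in the ovary. The comparisons of stigma and ovary share no arrays. Fitted changes of 33 of 41 members had the same sign in both tissues, against 68.4% of all probe sets.

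**Figure D2:**
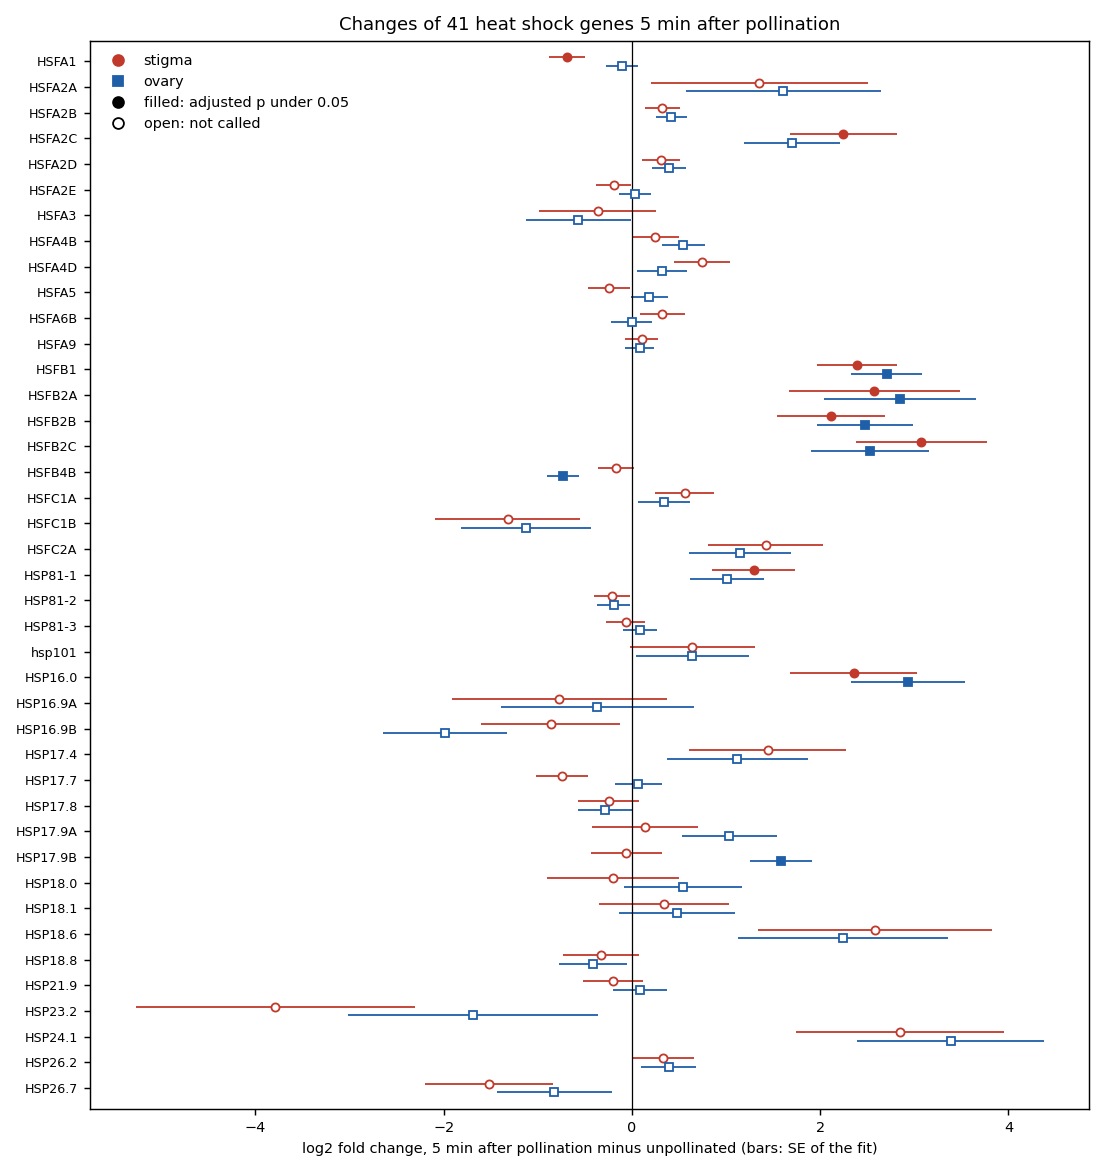
Log2 fold change of 41 heat shock genes 5 min after pollination minus unpollinated, in stigma (red circles) and ovary (blue squares), with bars for the standard error of the fit and filled symbols where the adjusted p is under 0.05. Filled symbols of both tissues stand together for HSFB1, HSFB2A, HSFB2B, HSFB2C and HSP16.0, at changes between 2.12 and 3.07.

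Of the 5 class B factors 4 rose in both tissues, where 2.58% of all tested probe sets did. They were 4 of the 7 members higher in the stigma and 4 of the 6 higher in the ovary. HSFB1 (LOC4347259) read 6.11 and 7.29 in the stigma at 5 min, against 1.87, 0.786 and 1.40 in the unpollinated stigma. In the ovary it read 4.12, 2.78 and 4.68 at 5 min, against 1.15, 0.580 and 0.288 unpollinated. The groups did not overlap in either tissue, and the changes were 5.25-fold in the stigma (log2 2.39 ± 0.43, SE, adjusted p = 0.000809) and 6.52-fold in the ovary (log2 2.71 ± 0.38, adjusted p = 0.000477). HSFB1 kept its call in both tissues without any single array, with log2 changes of 2.05 to 2.67 and 2.20 to 3.21.

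HSFB2C (LOC4347637) showed the largest called change of the stigma. It read 5.86 and 3.06 in the stigma at 5 min, against 1.52, 0.237 and 0.352 in the unpollinated stigma, which is 8.42-fold (log2 3.07 ± 0.70, adjusted p = 0.00443). In the ovary it read 2.01, 1.33 and 2.38 at 5 min, against 0.436, 0.405 and 0.187 unpollinated, which is 5.77-fold (log2 2.53 ± 0.62, adjusted p = 0.0227). Neither tissue's groups overlapped, although unpollinated stigma replicate 1 stood well above the other 2 arrays of its group. Of its other 2 probe sets the dimmer, which carries a suffix for possible cross-hybridisation, was also called in both tissues (log2 2.37 and 2.19), and the brighter was not (1.92 and 1.46, adjusted p = 0.0746 and 0.216).

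HSFB2A (LOC4336701) read 14.2 and 7.71 in the stigma at 5 min, against 7.41, 1.46 and 0.499 in the unpollinated stigma. In the ovary it read 6.25, 4.66 and 7.40 at 5 min, against 0.360, 2.43 and 0.663 unpollinated. No values overlapped, but unpollinated stigma replicate 1 came close to the dimmer pollinated array. The changes were 5.96-fold (log2 2.58 ± 0.91, adjusted p = 0.0495) and 7.19-fold (log2 2.85 ± 0.81, adjusted p = 0.0458), with the highest adjusted p of the 4 genes. Its second probe set was called in both tissues as well (log2 2.92 and 3.24).

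HSFB2B (LOC4346229) read 2.25 and 1.99 in the stigma at 5 min, against 0.890, 0.592 and 0.222 in the unpollinated stigma. It read 0.902, 0.686 and 1.76 in the ovary at 5 min, against 0.134, 0.244 and 0.194 unpollinated. The groups did not overlap, and the changes were 4.33-fold (log2 2.12 ± 0.57, adjusted p = 0.0129) and 5.55-fold (log2 2.47 ± 0.51, adjusted p = 0.00808).

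The fifth class B factor, HSFB4B (LOC4344063), followed another course. It read 3.09, 3.29 and 2.56 in the ovary at 5 min, against 4.51, 4.76 and 5.53 in the unpollinated ovary, without overlap, and fell by 0.73 on the log2 scale (SE 0.17, adjusted p = 0.0172). In the stigma it read 0.297 and 0.458 at 5 min, against 0.439, 0.378 and 0.429 unpollinated, with overlap and no call (log2 -0.17 ± 0.19). Its probe set carries a suffix that marks possible cross-hybridisation, and its other probe set differed by -0.53 in the ovary without a call (adjusted p = 0.185).

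**Figure D3:**
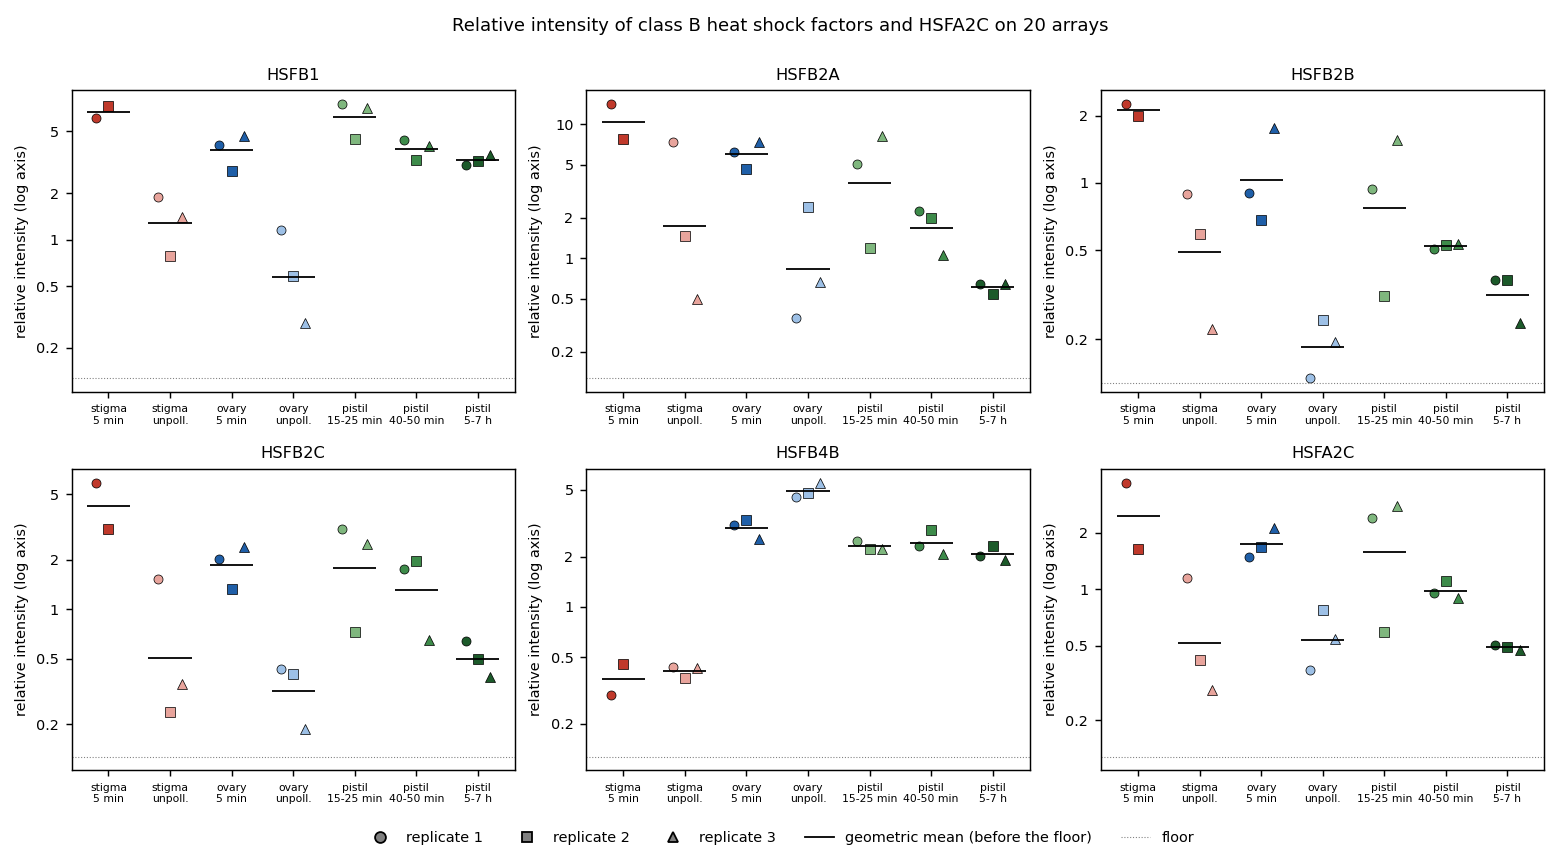
Relative intensity (log axis) of the 5 class B heat shock factors and of HSFA2C on 20 arrays in 7 groups, with a symbol per array, a bar for the geometric mean before the floor, and a dotted line at the floor of 0.128. HSFB1 stays above the unpollinated tissues at every time after pollination, whereas HSFB2A, HSFB2B, HSFB2C and HSFA2C are lowest of the pollinated groups in pistils at 5 to 7 h.

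Of the 12 class A factors 1 was higher and 1 lower at 5 min in the stigma, where 8.61% and 13.4% of all probe sets were, and none was called in the ovary, where 5.9% were. Their median log2 change was 0.28 in the stigma and 0.25 in the ovary. HSFA2C (LOC4348646), whose Arabidopsis relative HSFA2 sustains the response to repeated heat, read 3.71 and 1.64 in the stigma at 5 min, against 1.16, 0.421 and 0.288 in the unpollinated stigma. That is 4.75-fold without overlap (log2 2.25 ± 0.57, adjusted p = 0.00921). In the ovary it read 1.49, 1.69 and 2.11 at 5 min, against 0.369, 0.778 and 0.540 unpollinated, also without overlap, and the change of 1.70 ± 0.51 missed the threshold (adjusted p = 0.0592). The dimmer HSFA2C probe set read 0.605 and 1.28 in the stigma at 5 min, against 0.306, 0.464 and 0.488 unpollinated, with replicate 2 the brighter. In the ovary that probe set read 0.843, 0.657 and 0.874 at 5 min, against 0.374, 0.691 and 0.451 unpollinated, with overlap. The annotation lists an acireductone dioxygenase name under the entries of both HSFA2C and HSFA2D, so which transcript their probe sets read is not settled. For HSFA2D the 2 probe sets disagreed in the stigma: the brighter one was not called (log2 0.31 ± 0.20, adjusted p = 0.33), and the dimmer one was higher by 1.94 ± 0.58 (adjusted p = 0.0233, arrays overlapping).

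HSFA1, whose relatives are the first activators of the heat response in tomato and Arabidopsis, was the only member lower in the stigma at 5 min. It read 7.07 and 4.62 in the stigma at 5 min, against 8.90, 8.11 and 10.8 in the unpollinated stigma, and fell by 0.69 on the log2 scale (SE 0.19, adjusted p = 0.0151) without overlap. With arrays scaled on probe sets that are bright on every array, the change was -0.46 and was not called (adjusted p = 0.0631). In the ovary HSFA1 differed by -0.10 ± 0.17. HSFA2A read 4.10 and 0.954 in the stigma at 5 min, against 3.42, 0.243 and 0.558 in the unpollinated stigma, so that its difference of 1.35 ± 1.16 lay within the spread. Of the 3 class C factors none was called at 5 min. Of these HSFC2A differed by 1.42 ± 0.61 in the stigma (adjusted p = 0.108) and 1.14 ± 0.54 in the ovary (adjusted p = 0.241).

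Among the HSP90 genes HSP81-1 (LOC4345951) was called in the stigma. It read 55.9 and 37.1 in the stigma at 5 min, against 40.9, 10.01 and 15.6 in the unpollinated stigma. The groups overlapped through unpollinated replicate 1, and the change was 2.45-fold (log2 1.29 ± 0.44, adjusted p = 0.0432). In the ovary HSP81-1 read 32.0, 32.0 and 31.5 at 5 min, against 13.8, 24.3 and 11.7 unpollinated. Those groups did not overlap, but the change of 1.01 ± 0.40 was not called (adjusted p = 0.146). Its dimmer probe set differed by 0.24 and 0.42 with no call. HSP81-2 and HSP81-3, which lie near each other in the genome with 2 genes between them, read 27.5 to 38.6 and 98.3 to 125 in the stigma at 5 min, against 31.1 to 43.1 and 106 to 129 in the unpollinated stigma, with no call in either tissue. Such close relatives can share probes: the representative of HSP81-3 carries the suffix for possible cross-hybridisation. The HSP100 gene hsp101 varied too widely for a call, at 7.92 and 2.60 in the stigma at 5 min, against 9.01, 0.840 and 3.25 in the unpollinated stigma (log2 0.64 ± 0.67).

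Of the small heat shock protein genes 1 of 17 rose at 5 min in the stigma (8.61% of all probe sets did) and 2 in the ovary (3.88%), with median log2 changes of -0.20 and 0.39. HSP16.0 (LOC4340661) rose in both tissues. It read 5.04 and 2.31 in the stigma at 5 min, against 2.22, 0.384 and 0.348 in the unpollinated stigma, which is 5.12-fold (log2 2.36 ± 0.68, adjusted p = 0.0181). In the ovary it read 1.29, 0.974 and 1.34 at 5 min, against 0.104, 0.209 and 0.141 unpollinated, which is 7.63-fold (log2 2.93 ± 0.60, adjusted p = 0.00809) and a lower bound, since 1 unpollinated array lay at the floor. The groups did not overlap, although the stigma gap was narrow. HSP17.9B (LOC4325695) rose in the ovary, at 5.38, 7.30 and 9.22, against 3.79, 2.11 and 1.68 unpollinated (2.997-fold, log2 1.58 ± 0.33, adjusted p = 0.00938), and differed by -0.06 ± 0.37 in the stigma, with no call.

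HSP24.1 and HSP18.6 had large differences that were not called. HSP24.1 read 17.1 and 7.36 in the stigma at 5 min, against 8.39, 0.488 and 0.922 in the unpollinated stigma (log2 2.85 ± 1.11, adjusted p = 0.0767). It read 6.72, 6.18 and 9.80 in the ovary at 5 min, against 0.897, 1.48 and 0.269 unpollinated (log2 3.39 ± 0.99, adjusted p = 0.0523). HSP18.6 differed by 2.58 ± 1.25 in the stigma and by 2.24 ± 1.11 in the ovary. Of its 3 probe sets 2 gave like values, and the dimmest did not (log2 0.02 and 0.33). In the ovary the arrays of both genes did not overlap, and in the stigma 1 unpollinated array, replicate 1, lay within the pollinated range.

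HSP23.2 differed in the other direction, with a wide spread. It read 0.294 and 0.338 in the stigma at 5 min, against 11.4, 0.164 and 44.3 in the unpollinated stigma, a difference of -3.79 ± 1.49 that was not called (adjusted p = 0.0787). In the ovary it read 0.114, 0.135 and 0.0938 at 5 min, against 2.65, 0.220 and 0.103 unpollinated. No array taken after pollination exceeded 0.338, while 3 of the 6 unpollinated arrays lay above 2. HSP16.9A read 3.30, 0.420 and 32.2 and HSP26.7 0.559, 0.143 and 1.74 on the 3 arrays of the unpollinated stigma, high on replicates 1 and 3 and low on replicate 2 like HSP23.2.

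Leaving out arrays of the unpollinated stigma changed which members were called. Without its replicate 1, HSP18.6 (log2 4.21 ± 1.02, adjusted p = 0.0067), HSP24.1 (4.06 ± 1.02, adjusted p = 0.00846) and HSP17.4 (2.32 ± 0.78, adjusted p = 0.0421) were also higher in the stigma at 5 min, and 11 members were called in place of 8. The share of all probe sets called in that fit is not given here. On unpollinated replicate 1 EXPB9 read 3.83, within the 2.35 to 4.38 of its group. BIP1, the HSP70-type chaperone of the endoplasmic reticulum, read 80.4 there, against 76.0 to 86.8 in the stigma at 5 min and 11.99 and 25.9 on the other 2 unpollinated arrays. Why this array stood apart was not tested. Without replicate 2, HSP23.2 was lower in the stigma at 5 min (log2 -6.16 ± 0.89, adjusted p = 0.00029). With only the 2 stigma groups in the fit, HSFB1 was the 1 member called of the 8. HSFB1 and HSFB2C kept their calls without any single array. HSFB2A and HSP81-1 lost theirs without unpollinated replicate 2 or 3 or either pollinated array (log2 1.67 to 3.62 and 0.85 to 1.86), HSFB2B without unpollinated replicate 3 or either pollinated array (1.55 to 2.55), HSP16.0 without unpollinated replicate 2 or 3 or pollinated replicate 1 (1.79 to 3.22), HSFA2C without pollinated replicate 1 (1.66), and HSFA1 without unpollinated replicate 3 or pollinated replicate 2 (-0.996 to -0.38).

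In the ovary HSFB1 and HSP16.0 kept their calls without any single array. Without pollinated ovary replicate 3 only these 2 of 7 members were called. HSFB2B lost its call without that array (log2 2.09 to 2.77 over the 6 omissions), and HSP17.9B and HSFB4B without it or unpollinated ovary replicate 3 (1.33 to 1.92 and -0.81 to -0.62). HSFB2C lost its call without unpollinated replicate 3 or pollinated replicate 1 or 3 (2.14 to 2.77), and HSFB2A without any array except unpollinated replicate 2 (2.24 to 3.62).

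The difference between the responses of the 2 tissues was called for no member (limma, adjusted p), against 0.897% of all probe sets higher and 0.476% lower (1.37% in either direction), and 4 members had an unadjusted p under 0.05. HSP17.9B had the lowest of these, with a stigma response smaller than the ovary response by a log2 difference of -1.64 ± 0.50 (adjusted p = 0.131). Leaving out unpollinated stigma replicate 2 or unpollinated ovary replicate 1 brought that difference to -2.001 and -1.98, with a call.

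Before pollination the stigma and the ovary differed in 10 members, 7 higher in the stigma and 3 lower, where 19.7% of all probe sets were higher and 13.1% lower (32.8% in either direction). With quantile normalization the split of all calls was 5244 higher and 6451 lower in place of 6990 and 4643, and that of the members 6 and 3. The median log2 difference was 0.65 for the members, 1.21 for the small heat shock protein genes and 0.22 for all probe sets. HSP17.9B read 16.2, 11.2 and 34.7 in the stigma, against 3.79, 2.11 and 1.68 in the ovary, a 7.77-fold difference without overlap (log2 2.96 ± 0.33, adjusted p = 2.45e-06). HSP16.0 was 4.28-fold higher in the stigma (log2 2.10 ± 0.60, adjusted p = 0.0131) on the values given above. HSP17.9A, a class I cytosolic small heat shock protein, read 54.1, 11.4 and 92.2 in the stigma, against 13.4, 12.7 and 8.48 in the ovary, so that replicate 2 fell among the ovary arrays (log2 1.77 ± 0.51, adjusted p = 0.0128).

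HSP26.2 and HSFB4B were lower in the stigma. HSP26.2 read 1.61, 1.01 and 0.706 in the unpollinated stigma, against 2.88, 5.36 and 3.51 in the unpollinated ovary, and was lower by -1.85 ± 0.29 (adjusted p = 9.26e-05). The HSP26.2 probe set carries the suffix for possible cross-hybridisation. HSFB4B, with the values above, was 11.9-fold lower in the stigma (log2 -3.57 ± 0.17, adjusted p = 2.8e-10), and its second probe set was lower as well (log2 -2.80 ± 0.23). Neither gene was called in the stigma at 5 min. HSFA1 (8.90, 8.11 and 10.8 in the stigma, 4.59, 3.61 and 4.67 in the ovary) was higher in the stigma by 1.11 ± 0.17 (adjusted p = 7.59e-05), and HSFA5 by 0.84 ± 0.20 (adjusted p = 0.00371).

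HSFB1 (1.14 ± 0.38) and HSFB2B (1.40 ± 0.51) were also higher in the unpollinated stigma, with overlapping arrays, and HSP81-2 was lower (-0.47 ± 0.17). Only HSFA1, HSFA5, HSFB4B, HSP17.9B and HSP26.2 kept the call without any single array and when the 2 unpollinated groups were fitted alone. Without unpollinated stigma replicate 1, HSP16.0 (log2 1.23, adjusted p = 0.0861) was among the 5 that lost it. Without replicate 2, 18 members were called, HSP23.2 among them at 5.74 ± 0.81, and without unpollinated ovary replicate 1 HSP23.2 was called at 4.70 ± 1.34. The share of all probe sets called without stigma replicate 2 is not given here, so the 18 are not a result about the members. Of the HSP81-3 probe sets, 2 dimmer ones were lower in the stigma (log2 -0.88 and -0.85) where the brightest was not called. The dimmer HSP81-1 probe set was lower by -1.73 ± 0.23.

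Pistils after pollination were set against both unpollinated tissues, since a pistil is a mixture of them. A call needed both differences in the same direction, and the change given is the smaller one. The 3 comparisons share their unpollinated arrays. At 15 to 25 min 3 members were higher and 1 was lower (4.02% and 1.98% of all probe sets, 6% together), at 40 to 50 min 1 was higher and 1 lower (2.52% and 1.45%, 3.97% together), and at 5 to 7 h 2 were higher and 6 lower (8.61% and 7.41%, 16% together). All 3 stamen and lodicule genes were also lower at 5 to 7 h, with summed intensities of 16.4 to 19.6, against 117 to 129 in the unpollinated stigma and 26.65 to 58.3 in the unpollinated ovary, and their part in the lower calls was not tested.

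HSFB1 was above both tissues at all 3 times. It read 7.51, 4.48 and 7.03 at 15 to 25 min, 4.40, 3.29 and 4.003 at 40 to 50 min and 3.05, 3.20 and 3.51 at 5 to 7 h, against 0.786 to 1.87 in the unpollinated stigma and 0.288 to 1.15 in the unpollinated ovary. Every pistil array exceeded every unpollinated one. The smaller differences were 2.28, 1.61 and 1.35 on the log2 scale (SE 0.38 each, adjusted p = 0.000201, 0.00381 and 0.00731), and each was called without any single array.

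HSFB2C and HSFA2C were called at 15 to 25 min and not at the later times. HSFB2C read 3.07, 0.732 and 2.48 at 15 to 25 min, 1.76, 1.95 and 0.647 at 40 to 50 min and 0.639, 0.498 and 0.389 at 5 to 7 h. Its call at 15 to 25 min (1.82 ± 0.62, adjusted p = 0.0328) rested on replicates 1 and 3, since replicate 2 lay within the unpollinated range, and it was lost without either of them or without unpollinated stigma replicate 2 or 3 or unpollinated ovary replicate 3 (1.28 to 2.46). HSFA2C read 2.41, 0.591 and 2.80 at 15 to 25 min, 0.953, 1.11 and 0.899 at 40 to 50 min and 0.503, 0.494 and 0.471 at 5 to 7 h, and its call (1.56 ± 0.51, adjusted p = 0.0466) was lost without 6 of the 9 arrays (1.15 to 2.27), with quantile normalization, without the filter on low values and in the fit of the compared groups alone. The dimmer HSFA2C probe set read 0.982, 1.05 and 0.873 at 15 to 25 min. These values lay above its 0.306 to 0.488 in the unpollinated stigma and 0.374 to 0.691 in the unpollinated ovary, without a low replicate 2.

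HSP16.9B was below both tissues at all 3 times. It read 0.149, 0.136 and 0.140 at 15 to 25 min, 0.121, 0.143 and 0.0999 at 40 to 50 min and 0.120, 0.141 and 0.0914 at 5 to 7 h, against 5.10, 0.268 and 2.35 in the unpollinated stigma and 1.10, 0.413 and 0.570 in the unpollinated ovary. No pistil array overlapped an unpollinated one, and the pistil arrays lay at or just above the floor. The gene was 4.51-fold lower at 15 to 25 min (adjusted p = 0.0325), and at least 4.81-fold and at least 4.83-fold lower at the later times (adjusted p = 0.0346 and 0.0162). Without unpollinated ovary replicate 1 none of the 3 was called, and the smaller differences were -1.78, -1.87 and -1.88. At the 2 earlier times the call was also lost without unpollinated ovary replicate 3 or any pistil array of that time.

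At 5 to 7 h 5 of 17 small heat shock protein genes were lower than both unpollinated tissues by the test, where 7.41% of all probe sets were. The fitted means of 15 of the 17 lay below both tissues, against 47.8% of all probe sets. The counts were 10 at 15 to 25 min (43% of all) and 11 at 40 to 50 min (41.8% of all). HSP17.9A read 2.64, 2.58 and 3.23, against 11.4 to 92.2 in the unpollinated stigma and 8.48 to 13.4 in the unpollinated ovary, 4.03-fold lower (log2 -2.01 ± 0.51, adjusted p = 0.00677). HSP18.1, which lies a few genes away in a run of small heat shock protein genes that also holds HSP17.4 and HSP17.7, read 1.13, 1.17 and 1.24, against 3.94 to 38.6 in the unpollinated stigma and 5.12 to 5.66 in the unpollinated ovary (log2 -2.19 ± 0.62, adjusted p = 0.0141), and its second probe set, which carries the cross-hybridisation suffix, was lower too (-2.08 ± 0.64). HSP18.0 read 3.55, 3.70 and 3.52, against 21.6 to 45.5 in the unpollinated stigma and 9.76 to 19.5 in the unpollinated ovary (log2 -1.99 ± 0.63, adjusted p = 0.0265). Of its other 2 probe sets 1 was lower as well (-0.73 ± 0.20).

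The 3 arrays of 5 to 7 h lay close together for these genes. HSP18.8, whose representative can cross-hybridise, read 2.75, 2.16 and 2.45 and was lower by -1.09 ± 0.36 (adjusted p = 0.0335), and the fifth, HSP16.9B, is described above. HSP17.9A and HSP18.1 kept the call without any single array and in every other setting. HSP18.0 lost it without unpollinated ovary replicate 1 or 2 or any array of 5 to 7 h (-2.26 to -1.76), and HSP18.8 without unpollinated ovary replicate 1 or any array of 5 to 7 h (-1.41 to -0.66).

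**Figure D4:**
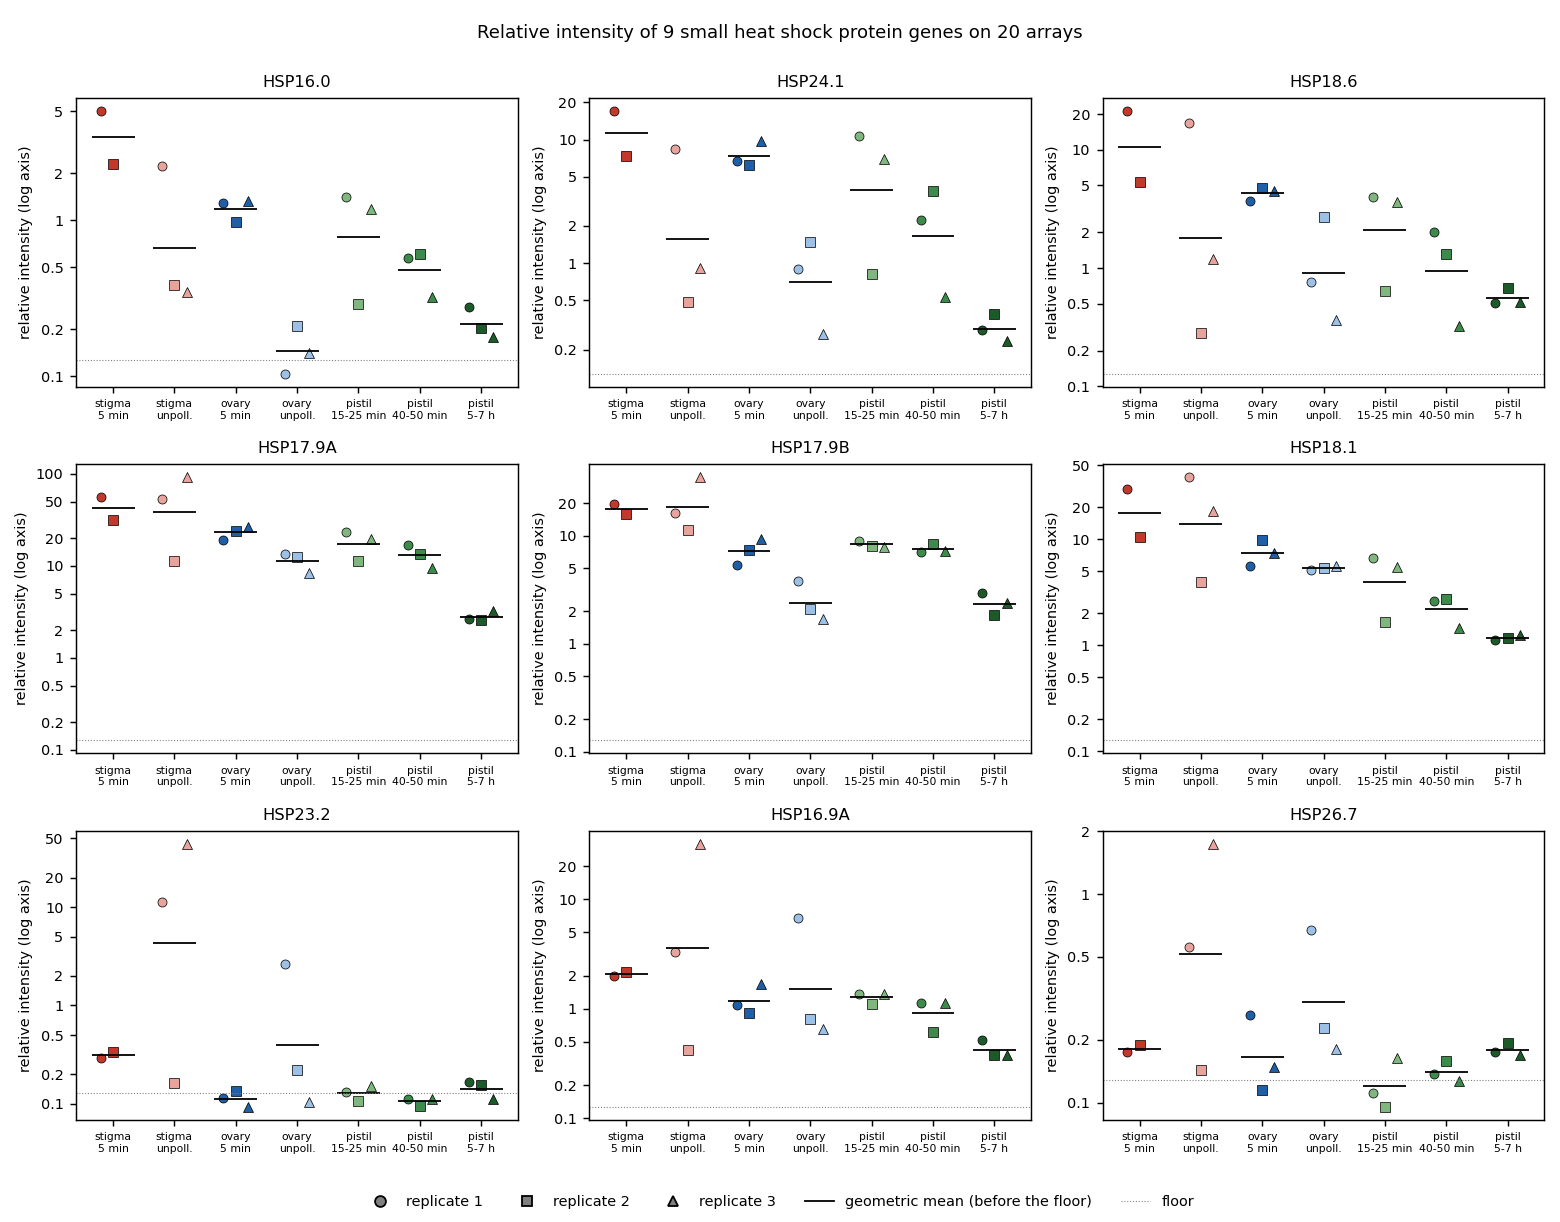
Relative intensity (log axis) of 9 small heat shock protein genes on 20 arrays in 7 groups, with a symbol per array, a bar for the geometric mean before the floor, and a dotted line at the floor of 0.128. HSP17.9A and HSP18.1 have their lowest arrays in pistils at 5 to 7 h (2.58 to 3.23 and 1.13 to 1.24), and HSP23.2, HSP16.9A and HSP26.7 are brightest on unpollinated stigma replicate 3.

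HSFA4D, known in rice as the spotted leaf gene SPL7, was higher at 5 to 7 h. It read 0.664, 0.577 and 0.567, against 0.183, 0.287 and 0.270 in the unpollinated stigma and 0.163, 0.355 and 0.324 in the unpollinated ovary, 2.26-fold above the nearer tissue (log2 1.18 ± 0.26, adjusted p = 0.00289), and kept the call without any single array. HSFA6B, at 0.301, 0.246 and 0.256, was lower by -0.56 ± 0.22 (adjusted p = 0.0381), a call lost with quantile normalization (-0.33) or with scaling on bright probe sets (-0.36), and without 5 of the 9 arrays (-0.65 to -0.44). All 3 arrays of 5 to 7 h lay below the other 17 arrays for 5 members, HSFA6B, hsp101, HSP17.9A, HSP18.1 and HSP18.8, and above them for HSFA4D alone. Of all probe sets 5.69% lay below and 8.5% above in this way. The gene hsp101 read 0.622, 0.532 and 0.487 at 5 to 7 h, against 0.840 to 9.01 and 1.005 to 2.04 in the unpollinated tissues, and was not called (log2 -1.43 ± 0.60, adjusted p = 0.0939).

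Between pistils at 40 to 50 min and at 15 to 25 min no member was called (limma), none had an unadjusted p under 0.05, and 0% of all probe sets were called. The members' log2 differences ran from -1.25 for HSP24.1 to 0.34 for HSFC1B. Between 5 to 7 h and 40 to 50 min 3 members fell and none rose, where 11.2% of all probe sets were higher and 6.79% lower (18% together). HSP17.9A read 2.64, 2.58 and 3.23 at 5 to 7 h, against 16.92, 13.6 and 9.62 at 40 to 50 min, and fell by 2.22 on the log2 scale (SE 0.51, adjusted p = 0.00531). HSP17.9B read 2.91, 1.84 and 2.37 at 5 to 7 h, against 7.01, 8.38 and 7.13 at 40 to 50 min, and fell by 1.68 (SE 0.33, adjusted p = 0.00191).

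HSFC2A read 0.315, 0.242 and 0.260 at 5 to 7 h, against 0.930, 0.995 and 0.634 at 40 to 50 min, and fell by 1.63 (SE 0.54, adjusted p = 0.0452). The arrays of these 3 genes did not overlap between the times. Both HSP17.9 genes kept the call without any single array, and HSFC2A lost it without any 1 of the 6 (-1.83 to -1.50), with quantile normalization and without the filter on low values. With only the 2 pistil groups in the fit 15 members were called, 2 higher and 13 lower, the 3 above among them. The share of all probe sets called in that fit is not given here, so the 15 are not a result about the members.

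Over the 9 comparisons 21 of the 41 members were called at least once, and 20 were not. Those 20 were 7 class A factors (HSFA2A, HSFA2B, HSFA2D, HSFA2E, HSFA3, HSFA4B and HSFA9), HSFC1A, HSFC1B, hsp101, HSP81-3 and 9 small heat shock protein genes (HSP16.9A, HSP17.4, HSP17.7, HSP17.8, HSP18.6, HSP21.9, HSP23.2, HSP24.1 and HSP26.7). Their fitted log2 changes ran from -3.79 (HSP23.2) to 2.85 (HSP24.1) in the stigma at 5 min and from -1.69 (HSP23.2) to 3.39 (HSP24.1) in the ovary at 5 min. Some were steady, as HSFA9 with 0.839 to 1.28 on all 20 arrays. Others were scattered, as HSFC1B, a factor tied to salt tolerance in rice, with 1.03, 7.81 and 1.69 in the unpollinated stigma.

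Other chaperone and heat response genes, from a list of J-domain proteins, Clp proteins, protein disulfide isomerases and related genes, gave 8 higher and 4 lower of 32 tested in the stigma at 5 min (8.61% and 13.4% of all probe sets) and 5 higher and none lower in the ovary (3.88% and 2.02%). BIP1 rose in both tissues (log2 1.47 ± 0.50 and 1.56 ± 0.45), as did the J-domain gene DJC27 (2.52 ± 0.61 and 2.06 ± 0.55), BZIP60, whose Arabidopsis namesake acts in endoplasmic reticulum stress (1.15 ± 0.28 and 1.20 ± 0.25), and CLPD1 (1.36 ± 0.37 and 1.24 ± 0.33). No difference between the responses of the tissues was called in this list, where 1.37% of all probe sets were. In the unpollinated stigma 7 were higher and 2 lower than in the unpollinated ovary, where 19.7% and 13.1% of all probe sets were. Against both tissues 3 were higher and none lower in pistils at 15 to 25 min (4.02% and 1.98% of all probe sets). None was called at 40 to 50 min (2.52% and 1.45%), and 2 were higher and 2 lower at 5 to 7 h (8.61% and 7.41%).

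The probe sets whose 7 group means ran most like those of HSFB2C, among 2810 with 1 named gene, were those of ITPK4 (r = 0.989), an inositol phosphate kinase, MPH1 (r = 0.988), BGLU16 (r = 0.986 and 0.981 for 2 probe sets), a beta-glucosidase, and JAZ6 (r = 0.983), a repressor of jasmonate signalling. These values describe 7 group means that share the same arrays, and carry no test.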

How the data were processed

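RNA of 20 samples was hybridised to Affymetrix rice arrays from 500 ng of total RNA. The deposited values are linear relative intensities with the upper quartile of each array at 1. GCOS 1.3 is named per the submitters' processing notes, and the sources used here do not give the program that set this scale. After 187 control probe sets were left out, values were raised to the table's percentile 20 (0.128) and put on the log2 scale, and 35470 probe sets above their array's median on at least 2 arrays were tested with limma 3.58.1 in R 4.3.3: group means of all 7 groups, 13 residual degrees of freedom, moderated with a trend, and Benjamini-Hochberg adjustment within each of 9 comparisons. Fold changes are ratios of geometric means. The code was tested on simulated data.

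Members and lists were chosen with earlier results of these data known. Arrays are given for members called in a comparison, up to the 5 largest changes each, and for the 3 members of highest mean; other members are given by range, and several of these were picked after their values were seen. Gene names come from the platform annotation and RefSeq's gene table, whose assembly the array files do not name, so no coordinates are given. Alternatives were quantile normalization, scaling on 9103 probe sets bright on all arrays, no filter, no floor, fits of the compared groups alone, the replicate number as a block, and leaving out each array. Of 57 same-numbered pairs of arrays 22 had deviations from the group means that correlated above 0.1 (r -0.259 to 0.425). The unpollinated ovary and pistils at 40 to 50 min had all pairs above it. So did the 5-min stigma with the unpollinated ovary and with pistils at 15 to 25 min and at 5 to 7 h. Of these the 5-min stigma and the unpollinated ovary both enter the difference between responses. No other compared groups had all pairs above it, so the numbers were not taken to pair the samples. For the difference between responses and for pistils at 40 to 50 min the block gave the same count of members called.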

Additional observations from a re-analysis of the deposited data

How the results depend on the processing

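Of 42 calls of single members, 17 were kept without every single array, 17 in every other setting and 16 in both, and none of 538 recomputed values changed sign. Leaving out 1 array gave 4 to 11 members in the stigma at 5 min (8 with all arrays), 2 to 8 in the ovary (7), 0 to 1 for the difference between tissues (0), 6 to 18 between the unpollinated tissues (10), 1 to 5 in pistils at 15 to 25 min (4), 1 to 3 in those at 40 to 50 min (2), 5 to 9 in those at 5 to 7 h (8), 0 between the 2 earlier pistil times and 2 to 3 between the 2 later ones (3). The shares of all probe sets without 1 array are not given here. Fitting only the groups compared gave 1 member in the stigma, 5 between the unpollinated tissues, 1 in pistils at 15 to 25 min, 1 at 40 to 50 min and 15 between 5 to 7 h and 40 to 50 min, and the cause was not tested. HSFB2A, HSFB4B and HSP17.9B lost their ovary calls in such fits. At 5 to 7 h HSFA6B, HSP16.9B and HSP18.8 lost theirs. In those fits all calls numbered 1270 in the stigma (7810 in the fit of all groups), 867 in the ovary (2091), 78 for the difference between tissues (487), 5864 between the unpollinated tissues (11633), 1389 at 15 to 25 min (2128) and 733 at 40 to 50 min (1409). All calls of the other comparisons are not given here, the 1 with 15 members among them. Without the filter on low values 1 member was called at 15 to 25 min and 1 at 40 to 50 min, with more probe sets tested, and 1334 probe sets in the ovary. HSFB2A lost its call in both tissues there, HSP81-1 in the stigma and HSFB2C in the ovary. HSP18.0 and HSP18.8 lost theirs at 5 to 7 h, and HSFB1, HSFB2B and HSP81-2 theirs between the unpollinated tissues. Without the floor HSFB2A lost the stigma call. With the replicate block the 9 comparisons gave 7, 7, 0, 10, 4, 2 and 8 members up to pistils at 5 to 7 h, then 0 and 3 between pistils. HSFB2A and HSP81-1 lost the stigma call, HSFB2A the ovary call and HSFB2B that between unpollinated tissues. Scaling on bright probe sets gave all calls as 1532 higher and 483 lower in the ovary (1375 and 716), 548 and 117 between responses (318 and 169), 3819 and 6611 between unpollinated tissues (6990 and 4643), 1631 and 351 at 15 to 25 min (1425 and 703) and 1095 and 248 at 40 to 50 min (895 and 514), and there the ovary call of HSFB4B was lost. Using probe sets without a cross-hybridisation suffix, chosen after seeing the data, gave 6 members in the ovary, 7 at 5 to 7 h and 4 between the 2 later pistil times. Levels near the floor limit the folds of HSP16.0 and HSP16.9B.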
